A study of Mus musculus with 8 samples.

Results

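The genes described here are 34 members of the p53 and DNA damage response, chosen by name as known genes of this pathway. They are Trp53 itself, its regulators, and genes known as p53 targets in cell cycle arrest, apoptosis, DNA repair and metabolism. All 34 were among the 34199 gene symbols of the count tables, and 32 of them were among the 13080 genes that passed a filter on low counts. The question was whether loss of replication-coupled histone deposition raises p53 targets.

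p53 is a transcription factor that the ubiquitin ligase MDM2 keeps at a low level in unstressed cells. Kinases that sense broken DNA or stalled replication forks modify p53, which then escapes MDM2 and activates genes for cell cycle arrest, death and repair, among them Mdm2 itself. Trp53 mRNA is a poor guide to p53 activity, because control lies mainly in the stability of the protein, so target genes are the usual readout of RNA data. CAF-1 is the histone chaperone that places new histones H3 and H4 on DNA behind the replication fork, and Chaf1b encodes 1 of its subunits.

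RNA-seq was performed on HOXA9-immortalized granulocyte-macrophage progenitors (iGMPs), mouse C57Bl/6 bone marrow cells named Lys-GFP-ER-HoxA9, in 4 groups of 2 libraries each. All groups carry HOXA9 fused to the hormone-binding domain of an estrogen receptor, which holds the cells in self-renewal in the presence of estradiol and stem cell factor, and a GFP cassette under the promoter of Lysozyme. Uninduced cells were grown with estradiol (150 ng/ml) and taken at 0 h. CAF-1 OFF cells received 500 µM IPTG for 48 h to express an shRNA against Chaf1b. HOXA9 OFF cells were washed and kept without estradiol for 48 h, a treatment that sends these cells toward neutrophils. The IPTG control received IPTG for 48 h; the labels do not name the construct it carries, and the study describes a spacer hairpin as its control. The lines are clones, and the labels do not say whether the 2 libraries of a group came from separate cultures, so p-values measure the spread between these libraries, which may be technical. The study's supplement speaks of independent sub-clones for its RNA-seq tracks, but the labels do not tie a replicate number to a sub-clone.

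The libraries held 14044284 to 22423837 reads in genes. Reads outside genes made up 14.64% of IPTG control replicate 1 and 5.301% to 7.79% of the other 7 libraries. Levels are counts per 1000000 reads in genes (CPM), with the library sizes scaled by TMM as described below. Chaf1b dropped from 96.8 and 100.2 CPM in uninduced libraries to 18.7 and 9.72 CPM in CAF-1 OFF, a log2 change of -2.79 (SE 0.27, edgeR FDR 0.00236). It also fell in HOXA9 OFF cells, by 1.14 (SE 0.25, edgeR FDR 0.00574). All 8 progenitor markers, among them Cd34, Kit and Mpo, were detected, with a summed level of 10770 to 15850 CPM in uninduced, IPTG control and CAF-1 OFF libraries and 5568 to 7558 CPM in HOXA9 OFF libraries. Against uninduced cells 5 of them were called lower in HOXA9 OFF, beside 22.1% of all tested genes. Prtn3 (1450 and 943 CPM in uninduced, 1820 and 1409 CPM in HOXA9 OFF) and Elane (461.5 and 260, then 738 and 432 CPM) did not fall. Elane was the 1 marker called in CAF-1 OFF, higher by 1.61 (edgeR FDR 0.0334), beside 10.5% of all tested genes called higher. A list of 8 neutrophil granule and calgranulin genes summed to 93.8 to 97.4 CPM in the 4 control libraries, 1267 and 2198 CPM in CAF-1 OFF and 8985 and 6125 CPM in HOXA9 OFF. Mmp8 made up most of this sum in CAF-1 OFF, at a mean of 1513 CPM (50.8 CPM in uninduced cells), with S100a8 and S100a9 at means of 36.2 and 21.6 CPM there. In HOXA9 OFF, S100a9, Ltf and Ngp had means of 1471, 1204 and 1087 CPM.

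Of these genes 3 were called in CAF-1 OFF cells. Pmaip1 and Ak1 rose, Dcxr fell, and the other 29 tested members were not called against uninduced cells, among them Apaf1, Ei24 and Triap1, which passed the FDR but not the fold threshold. A call required a false discovery rate (FDR, Benjamini-Hochberg over all tested genes) under 0.05 in edgeR's quasi-likelihood test and a change of at least 1.5-fold. The 2 members called higher are 6.25% of the 32 tested, beside 10.5% of all tested genes, and the 1 called lower is 3.12%, beside 3.50% (14.0% in either direction). The median log2 fold change was 0.04 over the members and 0.01 over all tested genes, and 16 of the 32 members had a positive value. Against the IPTG control, the second group without knockdown, Pmaip1, Ak1 and Dcxr were again the called members, beside 9.56% of all genes called higher and 3.20% called lower (12.8% together). Without HOXA9 activity, 14 members were called, 10 higher and 4 lower, beside 25.2% and 22.1% of all tested genes (47.2% in either direction). In bulk RNA, fewer cells expressing a gene and less of its RNA per cell cannot be told apart.

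**Figure D1:**
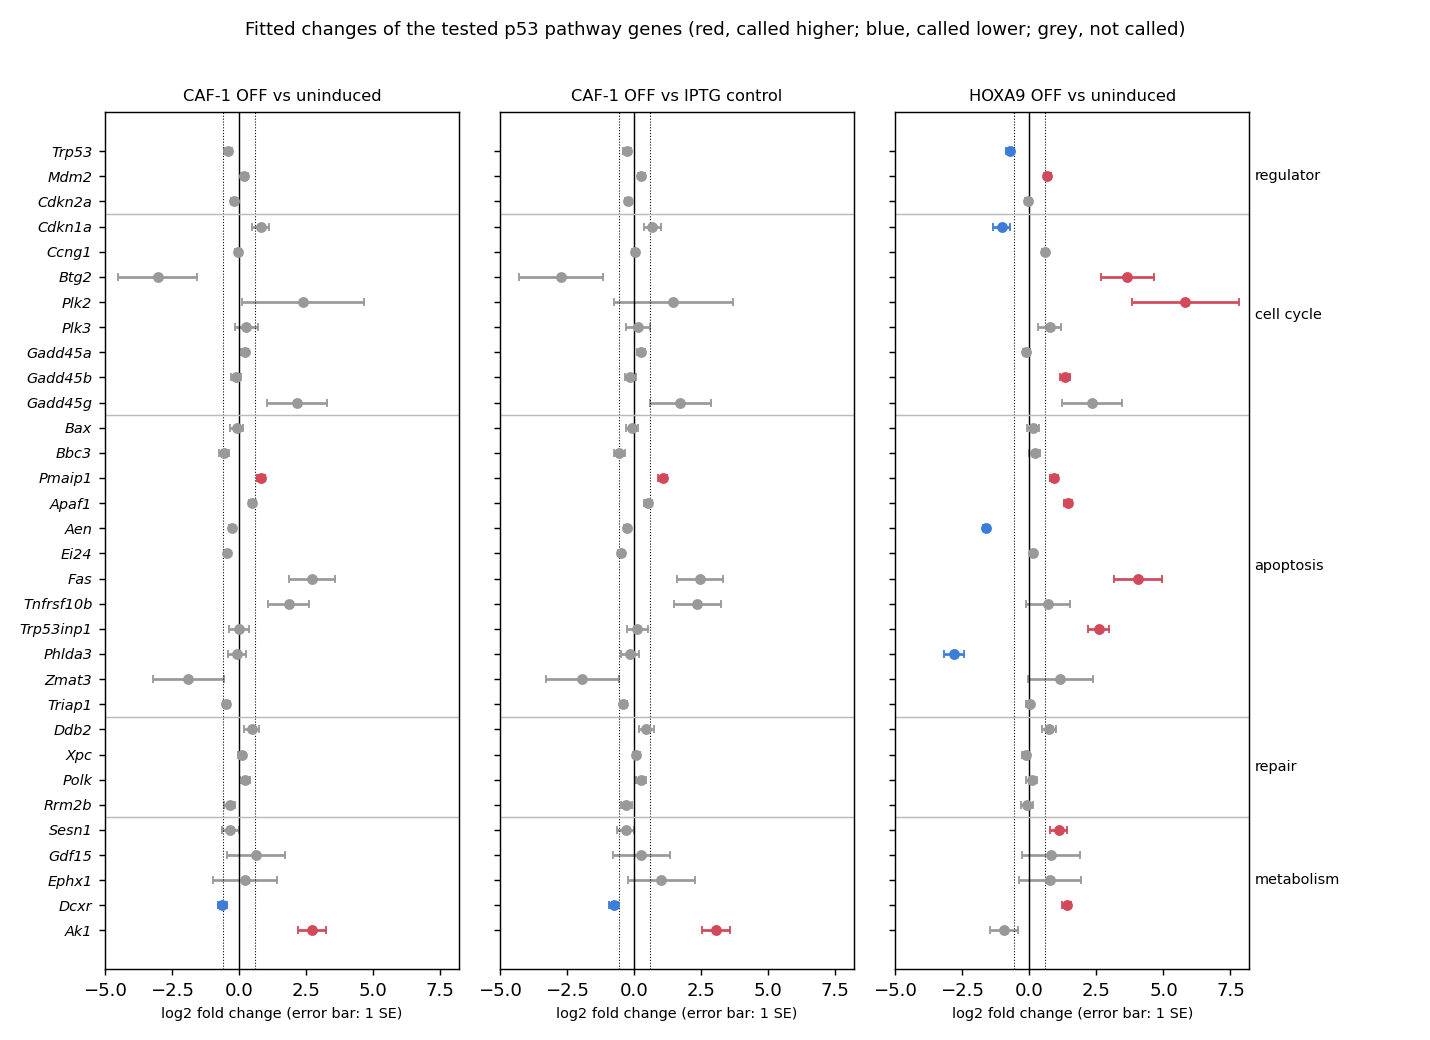
Fitted log2 fold change of each of the 32 tested members (points, with 1 SE as the error bar) in CAF-1 OFF against uninduced, CAF-1 OFF against the IPTG control and HOXA9 OFF against uninduced cells, grouped by role; dotted lines mark 1.5-fold, red is called higher, blue called lower and grey not called. In each of the first 2 panels Pmaip1, Ak1 and Dcxr are coloured, beside 14.0% and 12.8% of all tested genes called in these comparisons, and in the third 14 members are coloured, beside 47.2% of all tested genes.

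Before the values, the DNA around the members was searched for the p53 response element, a tandem pair of 10-base units whose consensus reads the same on both strands, within 5000 bases on either side of each gene's start in the mouse genome build mm9. With up to 10 bases between the units and every position matching, 4 of the 34 members (11.8%) held the element, beside 540 of 22374 protein-coding genes (2.41%). With no spacer and at most 1 mismatch, 4 of 34 members (11.8%) held it, beside 384 of all these genes (1.72%). A match describes letters in a window and is not evidence of binding. The printed elements are those with a mismatch upstream of Cdkn1a and Ccng1, the arrest genes that serve as classical p53 readouts, and the full matches nearest to the starts of the apoptosis members Trp53inp1 and Zmat3. They are written 5′ to 3′ on the gene's strand, with the bases that match the element in capitals and mismatches, spacer and flanks in lower case.
Cdkn1a: ttcagGAACATGTCTtGACATGTTCagccc
Ccng1: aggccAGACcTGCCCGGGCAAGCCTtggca
Trp53inp1: aggaAAACATGTCCaGGACTAGCCTggac
Zmat3: gtgagAAACAAGCCCAGGCATGTCTtggga
The Cdkn1a element lies at chr17:29227868-29227897 on the plus strand, and begins 51 bases upstream of the annotated start of the gene. The Ccng1 element lies at chr11:40568959-40568988 on the minus strand, upstream of the start by 170 bases. The Trp53inp1 element, with a 1-base spacer, lies at chr4:11082255-11082283 on the plus strand, upstream by 1319 bases. The Zmat3 element lies in an intron, 1328 bases past the start, at chr3:32263248-32263277 on the minus strand. The other two full matches lie near Dcxr, 4578 bases past the start, and Polk, 4378 bases upstream, and are not printed. Of the 4 members with a full match, Dcxr was called lower in CAF-1 OFF cells, and Dcxr and Trp53inp1 were called higher in HOXA9 OFF cells. Over all tested genes, 14.0% and 47.2% were called in these comparisons with uninduced cells, in either direction. Whether an element and a call go together was not tested.

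The 3 regulators were not called in CAF-1 OFF cells. Trp53 (chr11:69393861-69405375, plus strand) measured, in CPM, 23.8 and 24.0 in the uninduced libraries, 19.5 and 23.9 in the IPTG control, 17.8 and 18.5 in CAF-1 OFF, and 14.9 and 13.98 in HOXA9 OFF. Both CAF-1 OFF libraries lay below all 4 control libraries, and the log2 difference from uninduced cells, -0.40 (SE 0.15), had an edgeR FDR of 0.101. Trp53 fell in HOXA9 OFF cells, by 0.73 (SE 0.15, edgeR FDR 0.00432), to the lowest libraries of the series.

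Mdm2 (chr10:117125944-117147814, minus strand), the ligase that p53 itself induces, measured, in CPM, 48.3 and 57.5 in the uninduced libraries, 48.9 and 52.2 in the IPTG control, 55.4 and 66.3 in CAF-1 OFF, and 79.5 and 88.5 in HOXA9 OFF. The CAF-1 OFF libraries overlapped the uninduced ones, with a log2 difference of 0.20 (SE 0.14, edgeR FDR 0.329). Its 95% interval, -0.13 to 0.53, stayed within 1.5-fold (0.58 on the log2 scale). Both CAF-1 OFF libraries lay above both IPTG control libraries, with a log2 difference of 0.27 (SE 0.14, edgeR FDR 0.212) and a 95% interval of -0.06 to 0.60 that reached past 1.5-fold. Mdm2 rose in HOXA9 OFF cells, by 0.67 (SE 0.14, edgeR FDR 0.0042), with both libraries above all the others. That call was lost without uninduced replicate 1, where glmTreat tested against 1.5-fold, and with library size as the only scaling, over log2 values of 0.47 to 0.80 in all alternatives.

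Cdkn2a, the locus of the inhibitors p16INK4a and p19ARF, had the highest level per length of the 34 genes in uninduced cells, 225 CPM per kilobase of exon, against 72.5 for Bax, the next in order, 10.4 for Mdm2 and 5.91 for Trp53. Counts per gene symbol cannot separate its 2 products. Its libraries lay between 228.7 and 274.4 CPM in all groups, and the interval of the CAF-1 OFF difference, -0.43 to 0.03 on the log2 scale, stayed within 1.5-fold.

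Among the 8 cell cycle members, none was called in CAF-1 OFF cells against uninduced cells and the median log2 difference was 0.24. Cdkn1a (chr17:29227924-29237667, plus strand) encodes p21, the inhibitor of cyclin-dependent kinases that carries out much of p53's arrest. It measured, in CPM, 31.7 and 41.0 in the uninduced libraries, 33.9 and 46.1 in the IPTG control, 57.8 and 69.3 in CAF-1 OFF, and 11.6 and 23.8 in HOXA9 OFF. Both CAF-1 OFF libraries lay above every other library, and both HOXA9 OFF libraries below.

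The log2 difference of Cdkn1a between CAF-1 OFF and uninduced cells was 0.81 (SE 0.32, 95% interval 0.07 to 1.55), with an edgeR FDR of 0.109. Against the IPTG control it was 0.67 (SE 0.32, 95% interval -0.07 to 1.41, edgeR FDR 0.177). Cdkn1a passed against uninduced cells in 5 of 17 alternatives, namely DESeq2, the replicate block, a fit of the compared groups alone, and without HOXA9 OFF replicate 1 or replicate 2, with FDR from 0.0163 to 0.658 over all 17. In the comparison with the IPTG control it passed in 4 of 17, all of these except DESeq2, with FDR from 0.0335 to 0.937. In HOXA9 OFF cells Cdkn1a fell by 1.04 (SE 0.32, edgeR FDR 0.0261). That fall was not called in 4 of 17 alternatives, among them without uninduced replicate 2 or HOXA9 OFF replicate 1, and its log2 value ran from -1.65 to -0.61 over the alternatives. Compared directly, CAF-1 OFF cells had 3.58-fold more Cdkn1a than HOXA9 OFF cells (log2 1.84, SE 0.33, edgeR FDR 0.00243), a call kept in all 17 alternatives.

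Ccng1, which encodes cyclin G1, measured, in CPM, 56.9 and 67.4 in the uninduced libraries, 61.8 and 57.3 in the IPTG control, 59.3 and 62.2 in CAF-1 OFF, and 90.8 and 94.8 in HOXA9 OFF. The CAF-1 OFF libraries fell inside the range of the control libraries, and the log2 difference of -0.03 had a 95% interval of -0.31 to 0.25. In HOXA9 OFF cells the log2 difference of 0.58 (SE 0.12) had an edgeR FDR of 0.00347 but stayed just under 1.5-fold, at 1.49. It was called in 4 of 17 alternatives, namely DESeq2, DESeq2 size factors, and without uninduced replicate 2 or HOXA9 OFF replicate 1. Relative to HOXA9 OFF cells, Ccng1 was lower in CAF-1 OFF cells by 1.53-fold (edgeR FDR 0.00317), a call lost without CAF-1 OFF replicate 1, with glmTreat and with library size as the only scaling (lowest size over the alternatives -0.38 on the log2 scale).

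Btg2, an antiproliferative cofactor, lay under 1 CPM outside HOXA9 OFF cells. It measured, in CPM, 0.133 and 0.812 in the uninduced libraries, 0.0706 and 0.674 in the IPTG control, 0 and 0.105 in CAF-1 OFF, and 3.58 and 8.53 in HOXA9 OFF. It rose in HOXA9 OFF against uninduced cells by 3.65 (SE 0.99, edgeR FDR 0.0142), a call lost without uninduced replicate 1 or HOXA9 OFF replicate 2 (log2 2.88 to 5.43 over the alternatives). With the replicate block Btg2 was also called lower in CAF-1 OFF than in uninduced cells (edgeR FDR 0.0434, and 0.179 without the block), on 2 reads against 22. The CAF-1 OFF libraries together held 2 reads, against 238 in HOXA9 OFF, a ratio of 118 after scaling to depth (95% interval 32.2 to 976, counting error only).

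Plk2, a polo-like kinase, measured, in CPM, 0 and 0.128 in the uninduced libraries, 0 and 0.245 in the IPTG control, 0 and 0.731 in CAF-1 OFF, and 0.271 and 7.78 in HOXA9 OFF. Its HOXA9 OFF value came from 162 reads, nearly all in replicate 2, against 3 reads in uninduced cells, a ratio of 64.1 (95% interval 21.6 to 314, counting error only). The edgeR FDR was 0.0382. The call was lost without HOXA9 OFF replicate 2, without either uninduced library, with glmTreat and with DESeq2 (log2 1.96 to 9.23 over the alternatives). Plk2 was tested in 15 of the 17 alternatives and did not pass the filter on low counts in the others. In every group replicate 2 held more Plk2 than replicate 1.

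The GADD45 proteins are stress sensors that bind PCNA and cell cycle kinases. Gadd45b measured, in CPM, 11.2 and 9.66 in the uninduced libraries, 11.6 and 9.81 in the IPTG control, 9.36 and 9.98 in CAF-1 OFF, and 23.0 and 29.5 in HOXA9 OFF. It rose only in the HOXA9 OFF comparison among those with uninduced cells, by 1.33 in log2 units (SE 0.19, edgeR FDR 0.000735), and the 95% interval of the CAF-1 OFF difference, -0.55 to 0.33, stayed within 1.5-fold. Gadd45a, the member most tied to DNA damage, lay between 47.3 and 68.6 CPM in all libraries, and its CAF-1 OFF interval of -0.08 to 0.52 stayed within 1.5-fold as well. Gadd45g and the kinase gene Plk3 lay at no more than 2.13 and 4.16 CPM and were not called in any of the 5 comparisons with all libraries. Gadd45g was called higher in HOXA9 OFF than in uninduced cells with the replicate block and without uninduced replicate 2 (edgeR FDR 0.0178).

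**Figure D2:**
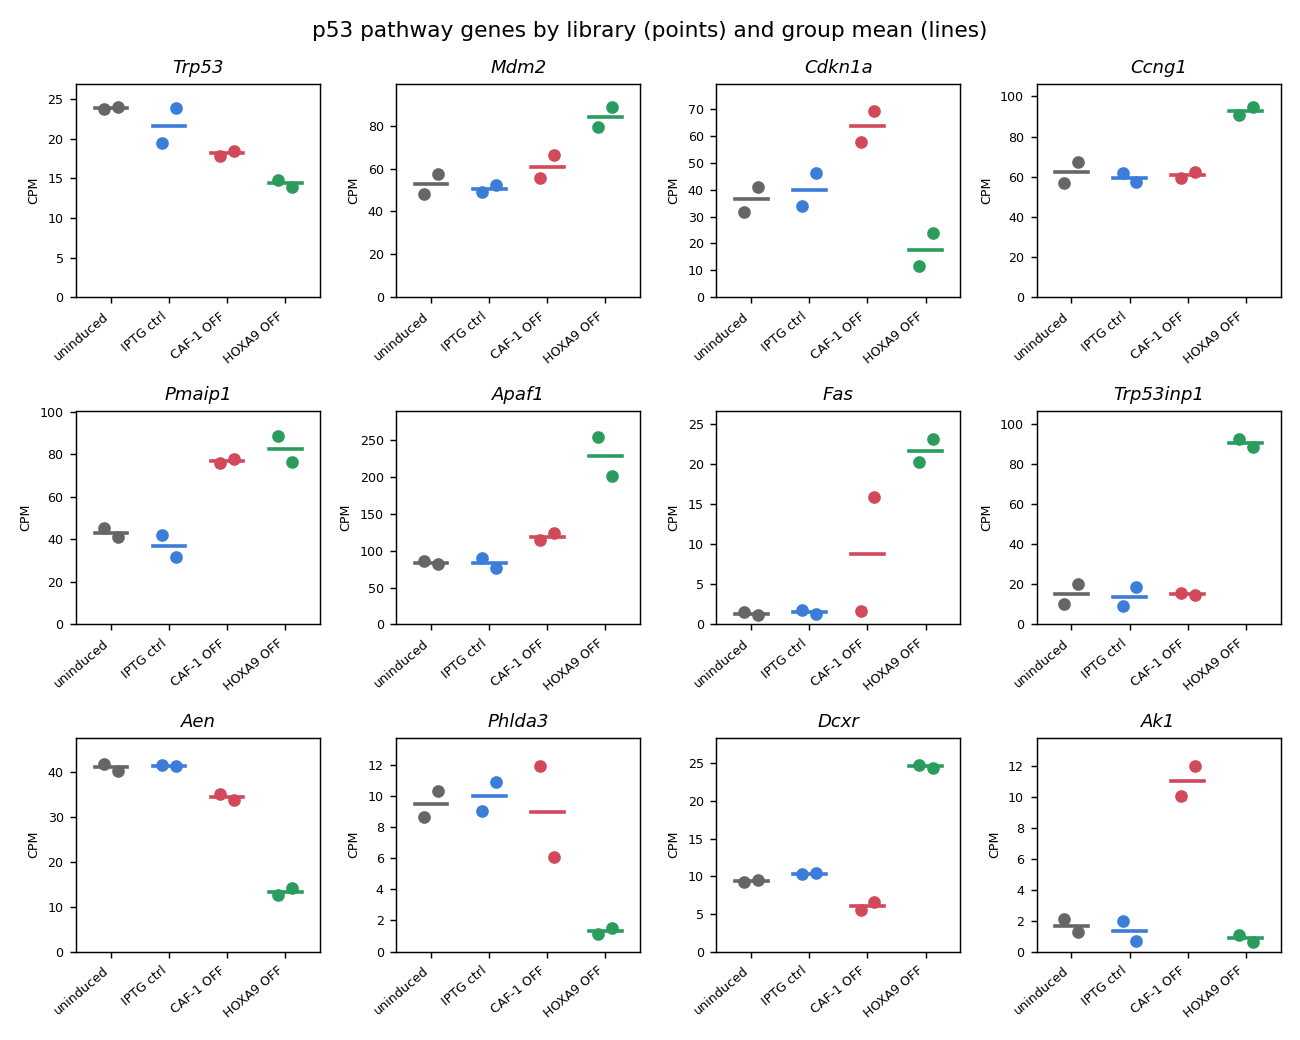
CPM of 12 members in each of the 8 libraries (points; lines are group means of 2 libraries; linear axes from 0). The CAF-1 OFF libraries of Pmaip1, Ak1, Cdkn1a and Apaf1 lie above the control libraries, and those of Trp53, Aen and Dcxr below. Those of Mdm2, Ccng1, Trp53inp1 and Phlda3 do not separate from the uninduced ones, and Fas is high in 1 of the 2 CAF-1 OFF libraries. Over all tested genes, the CAF-1 OFF and uninduced libraries do not overlap in 68.3%.

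Of the 14 apoptosis members 12 were tested, and in CAF-1 OFF cells 1 rose and none was called lower. This was Pmaip1 (chr18:66618258-66625204, plus strand), which encodes NOXA, a BH3-only protein that neutralizes the survival factor MCL1. It measured, in CPM, 45.3 and 41.0 in the uninduced libraries, 42.2 and 31.6 in the IPTG control, 76.0 and 77.7 in CAF-1 OFF, and 88.4 and 76.5 in HOXA9 OFF. The libraries of both induced conditions lay above all 4 control libraries.

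Pmaip1 rose by 0.83 (SE 0.15, edgeR FDR 0.0133) against uninduced cells and by 1.06 (SE 0.16, edgeR FDR 0.00832) against the IPTG control. It also rose in HOXA9 OFF cells, by 0.93 (SE 0.15, edgeR FDR 0.00141), and the 2 conditions did not differ by a call, with a 95% interval of -0.45 to 0.25 that stayed within 1.5-fold. The CAF-1 OFF call against uninduced cells was lost with glmTreat against 1.5-fold and without either uninduced library or either CAF-1 OFF library, at log2 values of 0.76 to 0.90 and FDR up to 0.226, the highest with glmTreat. Against the IPTG control it was lost with glmTreat and without IPTG control replicate 2 or CAF-1 OFF replicate 2, with FDR up to 0.0645.

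The other BH3-only gene of the set, Bbc3, encodes PUMA, a direct p53 target. It measured, in CPM, 14.9 and 14.9 in the uninduced libraries, 14.9 and 14.8 in the IPTG control, 10.3 and 9.88 in CAF-1 OFF, and 14.1 and 20.1 in HOXA9 OFF. Both CAF-1 OFF libraries lay below all the others. The log2 difference from uninduced cells was -0.56 (SE 0.20, edgeR FDR 0.0826), the opposite sign to Pmaip1. Against HOXA9 OFF cells Bbc3 was lower in CAF-1 OFF cells by 1.70-fold (log2 -0.76, SE 0.20, edgeR FDR 0.0133), and this call was lost in 6 of 17 alternatives, among them without HOXA9 OFF replicate 2 or either CAF-1 OFF library (-0.49 on the log2 scale at its weakest over the alternatives). Bax, the pore-forming effector, spanned 78.7 to 133.6 CPM and was not called in any comparison.

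Apaf1, the core of the apoptosome, measured, in CPM, 85.6 and 82.3 in the uninduced libraries, 89.6 and 76.1 in the IPTG control, 114.4 and 123.7 in CAF-1 OFF, and 254.9 and 202.2 in HOXA9 OFF. The groups were ordered without overlap, from controls to CAF-1 OFF to HOXA9 OFF. The CAF-1 OFF difference of 0.50 (SE 0.14, edgeR FDR 0.0381) passed the FDR but not the fold threshold, at 1.42-fold. Apaf1 rose in HOXA9 OFF cells, by 1.44 (SE 0.14, edgeR FDR 9.54e-05).

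Fas, the death receptor, differed between the CAF-1 OFF libraries. It measured, in CPM, 1.51 and 1.11 in the uninduced libraries, 1.84 and 1.35 in the IPTG control, 1.68 and 15.9 in CAF-1 OFF, and 20.2 and 23.1 in HOXA9 OFF. CAF-1 OFF replicate 1 lay within the range of the controls and replicate 2 close to HOXA9 OFF.

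The CAF-1 OFF value of Fas, 2.74 on the log2 scale (SE 0.86, edgeR FDR 0.0599), was 0.36 at its lowest and 3.57 at its highest over the alternatives, according to which of these 2 libraries was left out. It was called in 4 alternatives, without CAF-1 OFF replicate 1 and with DESeq2, the edgeR exact test or no filter. Fas rose in HOXA9 OFF cells, by 4.04 (SE 0.89, edgeR FDR 0.0057). Chaf1b was also lower, and the neutrophil gene list higher, in CAF-1 OFF replicate 2 than in replicate 1, as given above; their part in the difference was not tested. Tnfrsf10b, the TRAIL receptor, was likewise higher in replicate 2, at 0.474 and 1.93 CPM, and its log2 difference of 1.85 had an edgeR FDR of 0.13.

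Aen and Phlda3, a nuclease that promotes apoptosis and an inhibitor of AKT, fell in HOXA9 OFF cells alone among the comparisons with uninduced cells. Aen measured, in CPM, 41.8 and 40.3 in the uninduced libraries, 41.6 and 41.3 in the IPTG control, 35.2 and 33.8 in CAF-1 OFF, and 12.5 and 14.1 in HOXA9 OFF. It fell by 1.62 in HOXA9 OFF (SE 0.12, edgeR FDR 3.24e-05), and the CAF-1 OFF difference of -0.25 had a 95% interval within 1.5-fold. Phlda3 measured, in CPM, 8.67 and 10.3 in the uninduced libraries, 9.04 and 10.9 in the IPTG control, 11.9 and 6.06 in CAF-1 OFF, and 1.14 and 1.54 in HOXA9 OFF. It fell by 2.82 (SE 0.38, edgeR FDR 0.000463) in HOXA9 OFF, while the CAF-1 OFF libraries lay on both sides of the uninduced ones. Both genes were higher in CAF-1 OFF than in HOXA9 OFF cells, Aen by 2.59-fold (edgeR FDR 1e-04) and Phlda3 by 6.69-fold (edgeR FDR 0.000718).

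Trp53inp1, a p53 cofactor with a role in autophagy, measured, in CPM, 10.3 and 20.1 in the uninduced libraries, 9.04 and 18.5 in the IPTG control, 15.6 and 14.6 in CAF-1 OFF, and 92.8 and 88.7 in HOXA9 OFF. The CAF-1 OFF libraries fell between the 2 uninduced ones. Withdrawal of estradiol raised it 5.97-fold (log2 2.58, SE 0.38, edgeR FDR 0.000757), in all 17 alternatives.

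No other apoptosis member was called with all libraries. Zmat3, an RNA-binding target of p53, spanned 0.0526 to 14.6 CPM with replicate 2 above replicate 1 in every group. With the replicate block it was called lower in CAF-1 OFF cells than in uninduced cells (edgeR FDR 0.0389) and than in the IPTG control (edgeR FDR 0.0355). It was also called lower than in HOXA9 OFF cells in 4 of 17 alternatives, namely the replicate block, no filter on low counts, and without CAF-1 OFF replicate 2 or HOXA9 OFF replicate 1 (edgeR FDR down to 0.00403). Ei24 and Triap1 were lower in CAF-1 OFF than in uninduced cells at an edgeR FDR of 0.0299 and 0.0365, but by 1.36-fold and 1.39-fold, under the fold threshold, with both CAF-1 OFF libraries below the other 6 for each gene. Without CAF-1 OFF replicate 1, Ei24 was called lower than in the IPTG control and than in HOXA9 OFF cells, and the latter also without HOXA9 OFF replicate 2. Perp and Eda2r, a tetraspan protein and an ectodysplasin receptor, were not tested, and were at 0 in 7 of the 8 libraries. CAF-1 OFF replicate 2 held 2 reads of Perp and 1 read of Eda2r, no more than the 3 reads that a count of 0 allows.

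None of the 4 repair members was called in any comparison with all libraries. Ddb2 and Xpc recognise damage in nucleotide excision repair, Polk copies past lesions and Rrm2b supplies deoxynucleotides. Xpc lay between 143.3 and 202.5 CPM in all libraries, and the interval of its CAF-1 OFF difference, -0.23 to 0.43 on the log2 scale, stayed within 1.5-fold. Ddb2 rested at 5.05 and 5.12 CPM in the CAF-1 OFF libraries, above the 4.32 and 3.04 CPM of the uninduced ones, with a log2 difference of 0.47 (edgeR FDR 0.255). In HOXA9 OFF it measured 6.73 and 5.45 CPM, a log2 difference from uninduced cells of 0.73 (SE 0.27, edgeR FDR 0.0511) that was called in 4 of 17 alternatives, namely DESeq2 size factors, a mean of at least 50 counts, the replicate block and without uninduced replicate 1. Its exons share 652 bases with Acp2 on the opposite strand, and whether counting used the strand is not given in the sources used here. Acp2, given for this overlap, measured, in CPM, 27.2 and 24.4 in the uninduced libraries, 27.3 and 21.8 in the IPTG control, 24.5 and 24.03 in CAF-1 OFF, and 46.5 and 48.8 in HOXA9 OFF, and so was highest where Ddb2 was; its part in the Ddb2 count was not tested.

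The 5 metabolic and stress members held both remaining calls in CAF-1 OFF cells. Ak1 (chr2:32477278-32502325, plus strand), which encodes adenylate kinase 1, measured, in CPM, 2.09 and 1.24 in the uninduced libraries, 1.98 and 0.674 in the IPTG control, 10.1 and 11.96 in CAF-1 OFF, and 1.09 and 0.644 in HOXA9 OFF. Both CAF-1 OFF libraries stood clear of all the others. Ak1 rose 6.59-fold against uninduced cells (log2 2.72, SE 0.51, edgeR FDR 0.0135) and 8.36-fold against the IPTG control (log2 3.06, SE 0.53, edgeR FDR 0.0125), and was not called in HOXA9 OFF cells. The call against uninduced cells was lost without either uninduced library or CAF-1 OFF replicate 2, at log2 values of 2.39 to 3.14 and FDR up to 0.0977. Against the IPTG control it was lost without IPTG control replicate 2 or CAF-1 OFF replicate 2, with FDR up to 0.0885.

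The end of Ak1 overlaps the start of Eng, the gene of endoglin, on the same strand by 124 exon bases (Eng at chr2:32502115-32538189). Eng, chosen for this overlap after its values were seen, measured, in CPM, 2.45 and 2.65 in the uninduced libraries, 2.40 and 3.07 in the IPTG control, 19.3 and 33.2 in CAF-1 OFF, and 1.14 and 0.991 in HOXA9 OFF. It rose in CAF-1 OFF cells by 3.36 (SE 0.32, edgeR FDR 0.00224), and so moved with Ak1. How far transcription or reads of the neighbour contribute to the Ak1 count was not tested.

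**Figure D3:**
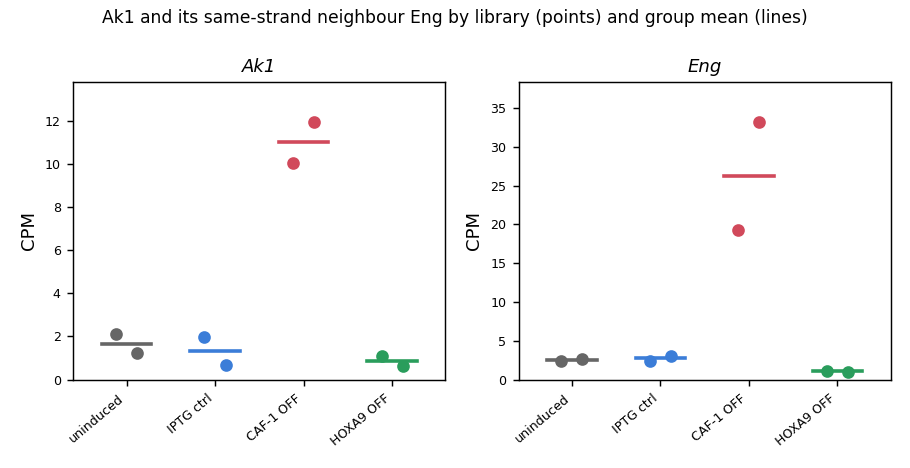
CPM of Ak1 and of its same-strand neighbour Eng in each library (points; lines are group means of 2 libraries; linear axes from 0). Both genes are highest in the CAF-1 OFF libraries, at 10.1 and 11.96 CPM for Ak1 and 19.3 and 33.2 CPM for Eng.

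Dcxr (chr11:120586713-120588595, minus strand), a reductase of dicarbonyls and L-xylulose, measured, in CPM, 9.30 and 9.49 in the uninduced libraries, 10.2 and 10.4 in the IPTG control, 5.58 and 6.58 in CAF-1 OFF, and 24.8 and 24.4 in HOXA9 OFF. The 2 induced conditions moved to opposite sides of the controls. Dcxr fell by 0.63 (SE 0.17, edgeR FDR 0.0367) in CAF-1 OFF, 1.54-fold and close to the fold threshold, and rose by 1.39 (SE 0.17, edgeR FDR 0.000266) in HOXA9 OFF. The direct comparison gave a 4.05-fold difference (log2 -2.02, SE 0.17, edgeR FDR 9.21e-05). The CAF-1 OFF fall was lost in 10 of 17 alternatives, among them the omission of any of the 6 uninduced, IPTG control and CAF-1 OFF libraries, with log2 values of -0.75 to -0.54. Against the IPTG control Dcxr fell by 0.76 (SE 0.17, edgeR FDR 0.0235), and 5 of 17 alternatives lost it, among them the omission of any IPTG control or CAF-1 OFF library (FDR up to 0.432, the highest with glmTreat).

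Sesn1, an inhibitor of mTORC1 signalling, measured, in CPM, 26.2 and 31.9 in the uninduced libraries, 28.5 and 29.6 in the IPTG control, 22.1 and 24.6 in CAF-1 OFF, and 39.6 and 83.8 in HOXA9 OFF. It was lowest in CAF-1 OFF and highest in HOXA9 OFF, where it rose by 1.09 (SE 0.31, edgeR FDR 0.0174). This call was lost without HOXA9 OFF replicate 2 or either uninduced library, with glmTreat and in a fit of the compared groups alone (log2 0.45 to 1.53 over the alternatives). Gdf15, a secreted stress cytokine, and Ephx1, an epoxide hydrolase, were not called. Gdf15 measured 0.542 and 16.4 CPM in the 2 HOXA9 OFF libraries, which lay on either side of all the others. Its log2 difference from uninduced cells was 1.76 without HOXA9 OFF replicate 1 and -3.14 without HOXA9 OFF replicate 2, and passed the threshold in both cases.

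In HOXA9 OFF cells the calls split by gene, with Mdm2, Btg2, Plk2, Gadd45b, Pmaip1, Apaf1, Fas, Trp53inp1, Sesn1 and Dcxr higher and Trp53, Cdkn1a, Aen and Phlda3 lower. The median log2 change of the 32 members was 0.69, beside 0.01 over all tested genes, with 23 positive values. Without HOXA9 OFF replicate 2 this median was 0.11, with 7 members called higher and 5 lower, and with only genes of a mean of at least 50 counts it was 0.17. The summed neutrophil and macrophage gene lists moved with these changes, the second from 27.0 to 54.5 CPM in the control libraries to 50.6 and 79.4 CPM in CAF-1 OFF and 1008 and 1699 CPM in HOXA9 OFF; their part in the member changes was not tested.

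Placed directly against HOXA9 OFF cells, CAF-1 OFF cells had 4 members higher, namely Cdkn1a, Aen, Phlda3 and Ak1, and 8 lower, namely Ccng1, Btg2, Gadd45b, Bbc3, Apaf1, Trp53inp1, Sesn1 and Dcxr. In 1 or more alternatives Plk2, Zmat3, Ei24, Fas, Mdm2, Triap1 and Gdf15 were also called, Gdf15 higher and the others lower. Triap1 was called only with no fold threshold. Over all tested genes 22.2% were higher and 21.4% lower (43.5% together), and of the members 12.5% and 25%. The median was -0.36 over the members and 0.04 over all genes. The members' median was -0.14 without HOXA9 OFF replicate 2, -0.55 without HOXA9 OFF replicate 1, -0.24 over genes with a mean of at least 50 counts and -0.13 with library size as the only scaling. With library size as the only scaling, the genes called over the whole table moved from 2898 higher and 2797 lower to 3948 and 2065, and from 3293 higher and 2886 lower to 2715 and 3705 in HOXA9 OFF against uninduced cells. Under this scaling 10 members were called in the direct comparison (4 higher, 6 lower). In HOXA9 OFF against uninduced cells 13 were called (9 higher, 4 lower), and no called member changed direction.

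No member was called between the 2 control groups. In the IPTG control against uninduced cells 0 of 32 members were called by edgeR or by DESeq2, and 0 reached an unadjusted p under 0.05, beside 100 genes at that p over the whole table. Of all tested genes edgeR called 0% and DESeq2 called 5 genes. The 95% intervals of 16 members stayed within 1.5-fold, Trp53, Mdm2, Ccng1, Bax and Bbc3 among them. In CAF-1 OFF against uninduced cells the same held for 7 members, namely Mdm2, Cdkn2a, Ccng1, Gadd45a, Gadd45b, Aen and Xpc, and for the others a change of 1.5-fold or more was within the interval. For CAF-1 OFF against the IPTG control it held for 4 members, Cdkn2a, Ccng1, Aen and Xpc. The 2 libraries of CAF-1 OFF did not overlap the 2 uninduced ones in 11 members above and 10 below, 65.6% of the tested members, beside 68.3% of all tested genes. The like shares were 62.5% and 68.9% against the IPTG control, 65.6% and 78.1% for HOXA9 OFF against uninduced cells, 68.8% and 78.2% between the 2 induced conditions, and 3.12% and 18.3% for the IPTG control against uninduced cells. The CAF-1 OFF, HOXA9 OFF and IPTG control comparisons share the uninduced libraries, so their values are not independent.

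Other genes of the pathway were described by lists, beside 10.5% of all tested genes called higher and 3.50% called lower in CAF-1 OFF against uninduced cells. Of 10 tested modifiers of p53, 1 rose, Hipk2, a kinase that phosphorylates p53, by 1.15 (SE 0.15, edgeR FDR 0.00543), from a mean of 30.04 to 66.6 CPM. Of 21 damage sensors and checkpoint kinases none rose and 1 fell, Rad1, a subunit of the checkpoint clamp, by 0.63 (edgeR FDR 0.0296). Of 23 further p53 targets 2 rose and 2 fell. Dram1, a lysosomal protein of autophagy, rose by 1.99 (edgeR FDR 0.0212), from a mean of 0.935 to 3.74 CPM. It reached the level required for naming, given below, through HOXA9 OFF, at a mean of 33.4 CPM. The other gene that rose did not meet the naming rule. Steap3, a metalloreductase, and Fdxr, ferredoxin reductase, fell by 1.11 (edgeR FDR 0.0243) and by 0.91 (edgeR FDR 0.0135). The median log2 difference of these 3 lists was -0.02, -0.15 and 0.32, beside 0.01 over all genes.

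Of 21 double-strand break repair genes 1 was called higher and none lower. Fancc was the 1 gene of 13 Fanconi anemia genes to fall, by 0.67 (edgeR FDR 0.0338), and Ung, uracil DNA glycosylase, the 1 of 22 excision and mismatch repair genes, by 0.72 (edgeR FDR 0.0173). Among 16 proliferation genes that p53 and p21 repress through the DREAM complex none fell in CAF-1 OFF cells, and Mki67 rose by 0.65 (edgeR FDR 0.0374). With the IPTG control as reference, edgeR called 1 modifier higher, 1 damage sensor lower, 2 further p53 targets higher and 2 lower, 2 double-strand break repair genes higher, 2 excision and mismatch repair genes lower, and none of the 13 Fanconi anemia or 16 DREAM genes, beside 12.8% of all tested genes. Neither Ccnb1, with 92.7 and 89.2 CPM before and 89.6 and 83.0 CPM after knockdown, nor Cdk1, with 253 and 207.7 against 227.6 and 221.6 CPM, was called.

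In HOXA9 OFF against uninduced cells the same lists were read beside 25.2% of all tested genes called higher and 22.1% lower. Of the modifiers 4 rose, Hipk2, Rfwd2, Ep300 and Rchy1, by 1.00 to 1.37 on the log2 scale. Of the damage sensors 12 of 21 fell, led by Rad1 (-1.61), Chek1 (-1.54), Atr (-1.38) and Hus1 (-1.16). Among the further p53 targets 5 rose and 7 fell, from Dram1, by 5.15, to Trp53i11, which fell by 3.52. Double-strand break repair had 2 genes higher and 9 lower, with Xrcc6 at -1.60, and excision and mismatch repair had 2 higher and 13 lower, with Apex1 at -2.02. Of the 13 Fanconi anemia genes 1 was higher and 4 were lower. Of the DREAM genes 8 of 16 fell, among them Mybl2 (-1.51), Ccnb1 (-0.81) and Cdk1 (-0.76).

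**Figure D4:**
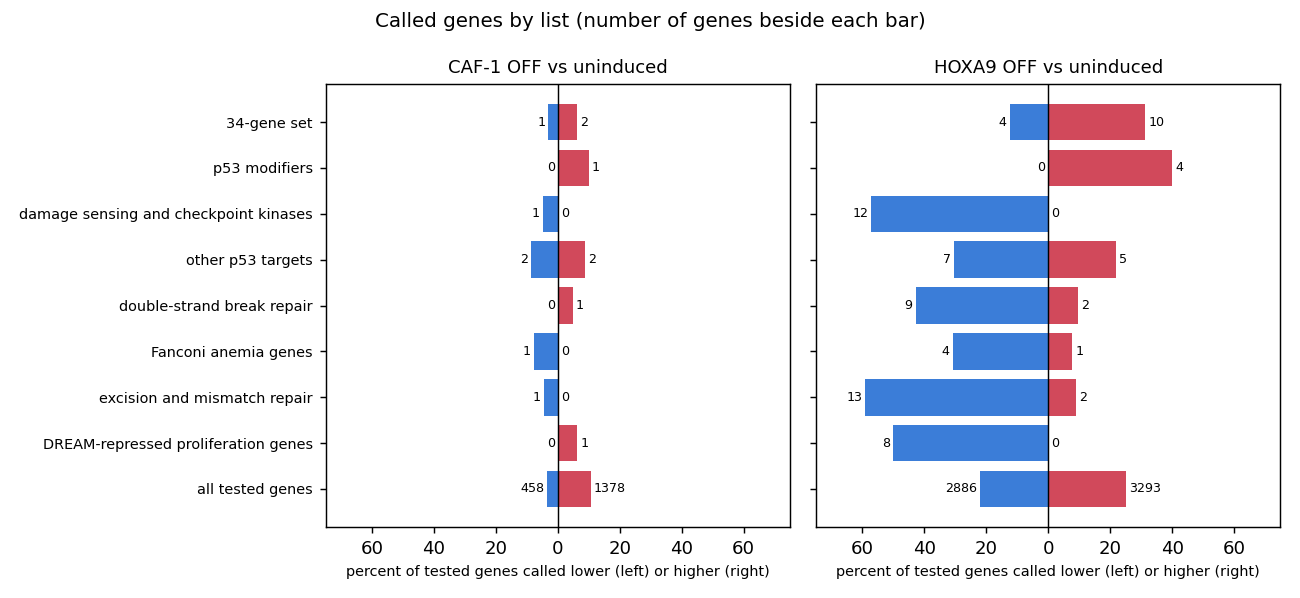
Percent of tested genes called lower (left, blue) and higher (right, red) in the 34-gene set, the 7 pathway lists and all tested genes, for each induced condition against uninduced cells, with the number of genes beside each bar. In CAF-1 OFF no list has more than 2 genes on a side, and in HOXA9 OFF damage sensing has 12 and excision and mismatch repair 13 genes lower.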

How the data were processed

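RNA-seq libraries of mouse iGMPs were made with a directional NEBNext kit. The authors used STAR on the mm9 genome and HTSeq-count for the gene tables, and deposited raw counts, a table for each library, neither normalized nor pooled. The 5 HTSeq summary rows were kept apart. The annotation version and strand setting are not given in the sources used here; reads with several alignments are not assigned to genes by this counter, and overlapping genes are uncertain.

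Counts were analysed with edgeR 4.0.16 and limma 3.58.1 in R 4.3.3. Genes passed filterByExpr, libraries were scaled by TMM, and 1 quasi-likelihood fit of all 8 libraries, without covariates, gave 5 contrasts, tested on simulated data beforehand. FDR is Benjamini-Hochberg over 13080 genes. A call required FDR under 0.05 and 1.5-fold. CPM uses TMM-scaled library sizes; intervals are 95%, and a count of 0 allows up to 3 reads. The biological coefficient of variation was 18.9%, and groups of 2 libraries limit precision. Alternatives were DESeq2 1.42.0, other scalings, filters, thresholds and tests, a fit of the compared groups alone, a replicate block, and leaving out each library.

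Groups and replicate numbers came from the labels. Members and lists were chosen with earlier results of these data known. Members called in any comparison, Trp53, Mdm2, Cdkn1a and members at or under 3 reads in a group get every library's value; from each list at most 4 called genes per comparison are eligible for naming, by size of change among genes whose mean log2 CPM reaches 2 and whose groups do not overlap, and some of these are named; 1 called repair gene is not reported here. Ccnb1 and Cdk1 are given as levels in CAF-1 OFF cells although not called there. Element searches used the mm9 sequence with a GENCODE gene annotation.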

Additional observations from a re-analysis of the deposited data

How the results depend on the processing

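No member called with all libraries reversed under any alternative. Gdf15, not called with all libraries, was called in HOXA9 OFF in opposite directions, at a log2 value of 1.76 without HOXA9 OFF replicate 1 and -3.14 without HOXA9 OFF replicate 2. Against uninduced cells, the 3 members called in CAF-1 OFF became 0 at FDR under 0.01 and 2-fold, 1 with glmTreat against 1.5-fold, 6 with no fold threshold (3 higher, 3 lower) and 5 with DESeq2; leaving out 1 library gave 0 to 4, with 0 without uninduced replicate 1, uninduced replicate 2 or CAF-1 OFF replicate 2. Against the IPTG control, the 3 became 1, 1 and 5 under the first 3 of these; leaving out 1 library gave 0 to 4, with 0 without IPTG control replicate 2 or CAF-1 OFF replicate 2. A group left with 1 library was assumed to vary like the others. The 14 called in HOXA9 OFF became 7 at FDR under 0.01 and 2-fold and 9 with glmTreat, and 11 to 15 on leaving out 1 library. The 12 called between CAF-1 OFF and HOXA9 OFF became 11 to 14 on leaving out 1 library, and the IPTG control had 0 throughout. Library size alone as the scaling left 1 excision and mismatch repair gene (2 with TMM) and 1 DREAM gene (0 with TMM) called in CAF-1 OFF against the IPTG control. It moved the median of all genes from 0.01 to -0.18 in HOXA9 OFF against uninduced cells and from 0.04 to 0.27 in CAF-1 OFF against HOXA9 OFF. Why these counts moved was not tested. Members under 1 CPM, such as Plk2 and Btg2, rest on few reads.

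Replicate numbers do not pair the libraries of all groups: deviations of same-numbered libraries correlated at 0.48 between uninduced and IPTG control cells and 0.30 and 0.32 between these and HOXA9 OFF, but at -0.04, -0.02 and 0.08 between CAF-1 OFF and the uninduced, IPTG control and HOXA9 OFF groups. With the replicate block, the called members were 6 (3 higher, 3 lower) in CAF-1 OFF against uninduced cells, 5 (3 higher, 2 lower) against the IPTG control, 16 in HOXA9 OFF and 14 between CAF-1 OFF and HOXA9 OFF, and double-strand break repair had 2 calls in place of 1 in the first of these comparisons.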

Other observations

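Replicate 2 exceeded replicate 1 in all 4 groups for 8 of the 32 tested members (25%), namely Mdm2, Cdkn1a, Btg2, Plk2, Plk3, Gadd45g, Zmat3 and Sesn1, beside 9.73% of all tested genes. Replicate 1 exceeded replicate 2 in all 4 groups for 1 member, Xpc (3.12%), beside 10.4% of all tested genes. The labels do not say what libraries with the same number share.

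The CAF-1 OFF libraries also held more of lists that mark other cell types than the controls did. A list of 8 lymphoid markers summed to 2.12 to 3.31 CPM in the control libraries, 17.2 and 16.6 CPM in CAF-1 OFF and 3.85 and 8.87 CPM in HOXA9 OFF, with Cd3e, Cd3g, Cd8a and Ncr1 at 0 in all libraries. Most of the CAF-1 OFF sum came from Cd79a, with means of 15.4 CPM there and 2.18 CPM in uninduced cells. A list of 7 erythroid markers summed to 4.83 to 7.87 CPM in the controls, 15.99 and 15.6 CPM in CAF-1 OFF and 22.9 and 12.7 CPM in HOXA9 OFF. Fibroblast and endothelial markers summed to 229.4 to 253.9 CPM in the controls, 349.3 and 393.4 CPM in CAF-1 OFF and 373 and 309.3 CPM in HOXA9 OFF, most of it from Pecam1, at a mean of 240 CPM in uninduced and 366.5 CPM in CAF-1 OFF cells.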
